A study of Mus musculus with 83 samples.

Results

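The 34 genes described here are genes of the oocyte, the egg cell at the centre of the ovarian follicle. They were chosen by name as genes known from the oocyte, and all 34 were found among the 21572 gene rows of the counts table. Of these, 33 stood under the listed name, and H1foo, the oocyte linker histone, stood under its newer symbol H1f8. RNA was measured in 83 libraries, each from 1 ovarian follicle of wild-type CD-1 mice, an outbred strain. Some follicles were fresh. The others had been vitrified, that is, cryopreserved by cooling to a glass-like state. Both kinds were grown for 8 days in 0.5% alginate, a gel that keeps the follicle round, with recombinant FSH at 10 mIU/ml. Follicles of 300 to 350 µm were then given 1.5 IU/ml hCG, a hormone that acts in place of the ovulatory surge of luteinizing hormone, together with EGF (10 ng/ml) and more recombinant FSH (10 mIU/ml). The 0 h samples carry the same treatment label, and the labels used here give no age of the mice.

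Follicles were collected 0, 1, 4 or 8 h after hCG, which makes 8 groups. Fresh follicles numbered 18, 6, 7 and 4 at these times and vitrified follicles 15, 14, 7 and 12. The titles carry 3 codes, each followed by a well position and a sample number, and only the code of the 0 h libraries contains the word plate. Libraries with the same code are called a set here. One set held the 0 h libraries alone, so that the step from 0 to 1 h and the set cannot be told apart. The second set held all later fresh libraries together with 5 vitrified libraries of 1 h, 7 of 4 h and 3 of 8 h, and is named the shared set below. The third, with 9 libraries from 1 h and 9 from 8 h, contained vitrified follicles alone and is named the vitrified-only set. Within the shared set each group fills a well row of its own, and sample numbers repeat between rows (fresh 4 h with fresh 8 h, fresh 1 h with vitrified 1 h), so that its libraries may come from more than 1 run. No label names the runs, and in this set group and row, or a run that goes with it, cannot be told apart. Since no label tells which animal or culture run a follicle came from, the p-values reflect only differences among follicles, part of which may be technical.

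A fully grown oocyte has largely stopped transcribing and lives on stored maternal RNA. It secretes the zona pellucida, the coat to which sperm bind, and the growth factors GDF9 and BMP15, which act on the cumulus cells around it. Much of its stored RNA is translated only when meiosis resumes after the ovulatory signal, and is then degraded stepwise. In mouse oocytes a large protein assembly under the cell membrane, the subcortical maternal complex, is needed for the first divisions of the embryo.

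Total counts per library ran from 682200 to 6504588 with a median of 2765962, and the 2 shallowest were vitrified 0 h replicates 11 and 12. Granulosa markers, 11 genes, summed to between 14800 and 114958 CPM, the count of a gene scaled to the same total in every library. Of 6 immune markers, Lyz2 had a median of 7.25 CPM and the others a median of 0 CPM. None of the 4 erythroid markers was found among the gene rows of the counts table, so their level could not be read. Levels of different genes were compared as CPM per kb of exon, because the authors' log2(TPM + 1) values are scaled by the length of the whole gene with its introns. Over 16833 genes the logarithm of the length implied by the table had a correlation of 0.9989 with that of the gene span and of 0.81 with that of the exons.

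The oocyte genes made up a small share of each follicle's RNA. Their summed counts took 0.00574% of a library at the median, that is 57.4 CPM, with a range of 6.89 to 417 CPM over the 83 libraries. At least 1 count was found for 11 to 32 of the 34 genes (median 25) and at least 5 counts for 0 to 26 (median 11). In bulk samples fewer cells of a type and less RNA per cell cannot be told apart. With each library thinned to 682192 counts, the median number of genes with at least 5 counts was 2, and the highest was 11. A gene at 0 could still lie under 3 counts, which corresponds to 0.461 to 4.40 CPM depending on the library.

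By level, averaged over the 83 libraries, Padi6 led with 6.40 CPM per kb of exon, followed by H1f8 at 5.03 and Bcl2l10 at 3.35. Zp3 at 2.15, Khdc3 at 1.99, Gdf9 at 1.96 and Tle6 at 1.96 CPM per kb came next. The order by median differed: H1f8 led with 4.20, before Bcl2l10 at 2.88 and Padi6 at 2.42 CPM per kb. For a background, 50 genes of tissues absent from a follicle were listed after the data had been seen, and 24 of them had a row in the table. The median of their mean levels was 0.0304 CPM per kb. Snap25, a gene of neurons, reached a mean of 0.931 and Pclo, another, of 0.231 CPM per kb. Their medians over the libraries were 0 and 0.196, so the mean of Snap25 rests on a minority of libraries. By mean, 25 of the 34 oocyte genes lay above Pclo and 12 above Snap25, and 6 lay at or under Krt10, a gene of skin, at 0.113 CPM per kb. Ddx4, the germ cell RNA helicase, had no count in 74 of 83 libraries, and Figla, a transcription factor that switches on the zona genes, had none in 72. Nlrp2 was at 0 in 63 libraries, Pabpc1l, the oocyte's poly(A)-binding protein, in 52, and Dazl, a germ cell RNA-binding protein, in 49. Of the 4 genes set as defining markers of the oocyte, Ddx4 and Dazl were thus at 0 in most libraries, whereas Gdf9 was at 0 in 3 and Zp3 in 14.

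**Figure D1:**
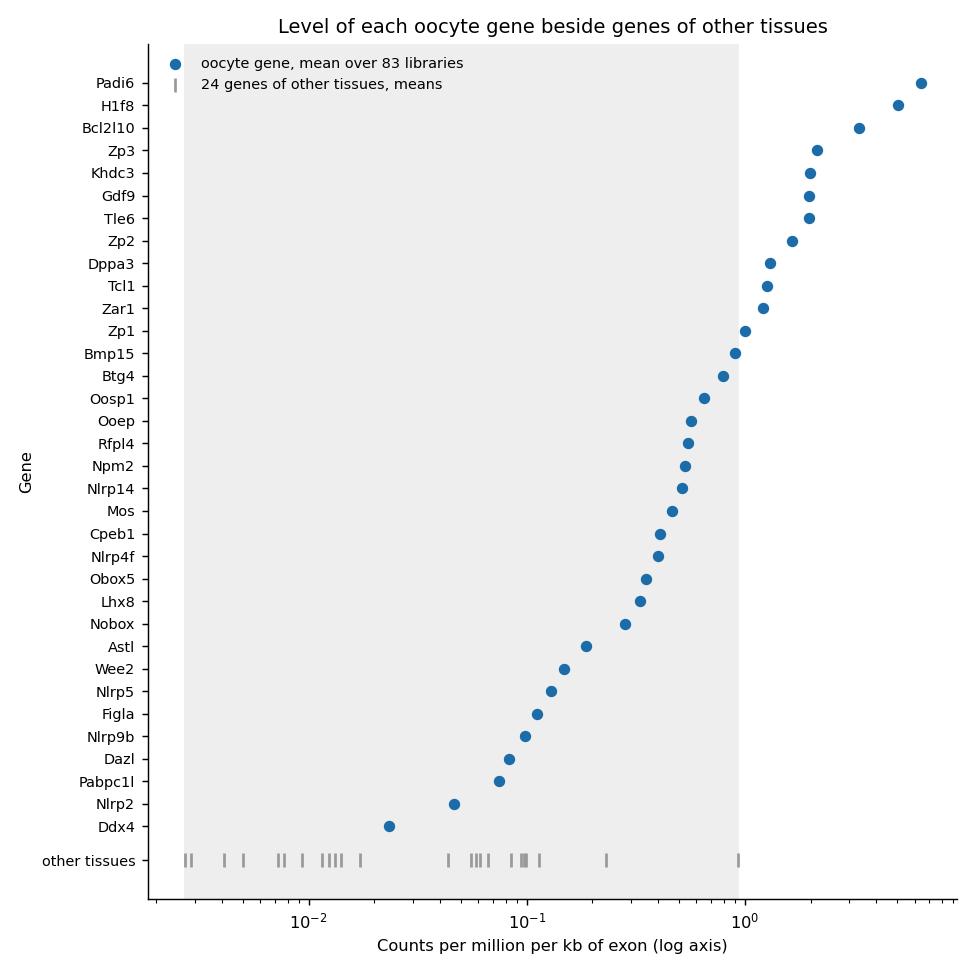
Mean level of each oocyte gene over 83 libraries, in CPM per kb of exon on a log axis, with 24 genes of other tissues as grey ticks and their whole range shaded. Padi6, H1f8 and Bcl2l10 stand highest at 6.40, 5.03 and 3.35, and Ddx4 lies within the range of the other tissues' genes.

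Across the 8 groups the summed level overlapped widely. Fresh follicles had a median of 59.9 CPM at 0 h (37.4 to 196, n = 18), 93.0 at 1 h (41.3 to 131, n = 6), 38.5 at 4 h (23.4 to 122, n = 7) and 57.5 at 8 h (49.2 to 87.1, n = 4). Vitrified follicles had 56.8 CPM at 0 h (36.6 to 354, n = 15), 52.5 at 1 h (6.89 to 111, n = 14), 36.6 at 4 h (31.5 to 71.4, n = 7) and 80.4 at 8 h (32.3 to 417, n = 12). The ranges of fresh and vitrified follicles overlapped at each time, and the lowest medians of both kinds were those of 4 h. The 3 lowest libraries were all vitrified 1 h libraries of the vitrified-only set, at 6.89, 14.2 and 20.4 CPM. The granulosa sum moved otherwise: its median was 80979 CPM in fresh follicles at 1 h, 60130 at 4 h and 16257 at 8 h. Over the 83 libraries, with the mean of each group and set removed, the summed oocyte level had a correlation of -0.19 with the granulosa sum and of -0.024 with the total count.

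**Figure D2:**
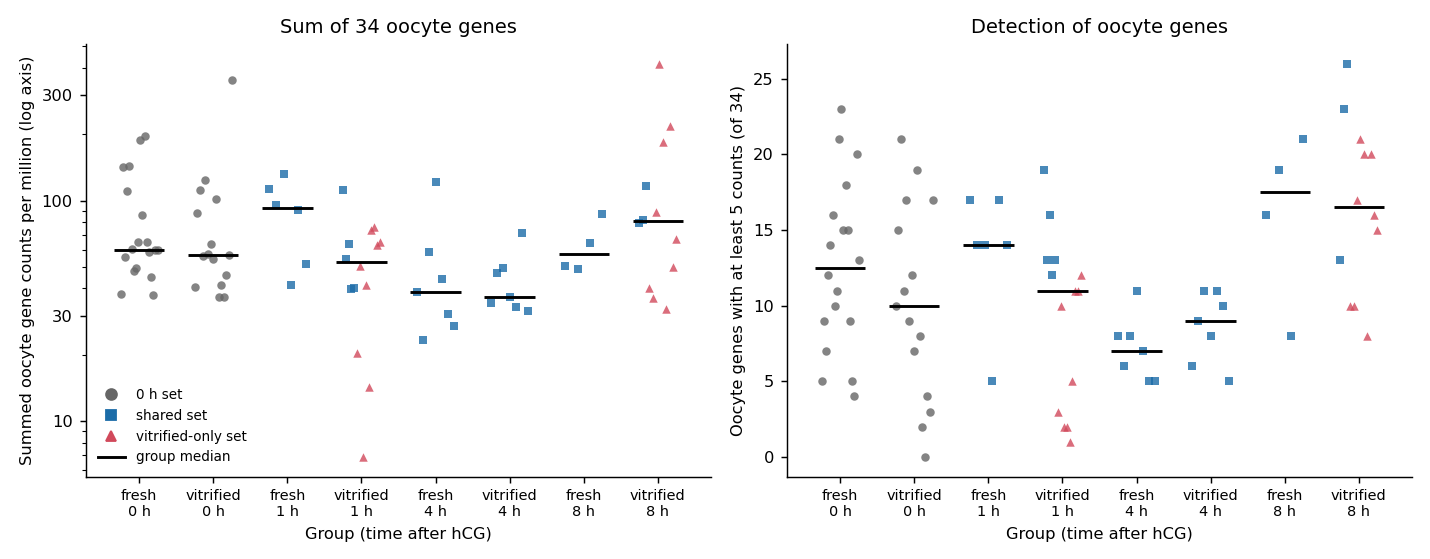
Summed CPM of the 34 oocyte genes on a log axis (left) and the number of them with at least 5 counts (right), 1 point per library, coloured by set, with a line at the group median. Group medians lie between 36.6 and 93.0 CPM, while vitrified follicles at 8 h alone range from 32.3 to 417 CPM.

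Detection depends on the depth of a library as well as on the level. The median number of genes with at least 5 counts was 12.5 in fresh and 10.0 in vitrified follicles at 0 h, 14 and 11 at 1 h, 7.0 and 9.0 at 4 h, and 17.5 and 16.5 at 8 h. At the thinned depth these medians were 2.5 and 2.0, 4.5 and 1.0, 1.0 and 1.0, and 3.0 and 3.5. The 4 h follicles were low at both depths, together with vitrified 1 h follicles at the thinned depth. The most abundant oocyte gene of a library was Padi6 in 39 libraries, H1f8 in 15 and Tle6 in 14, and it held 9.38% to 41.7% of the summed counts.

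The zona pellucida genes were counted in most follicles and varied widely. Zp3, which encodes the main structural glycoprotein of the coat, lay between 0 and 32 CPM with a median of 1.15, Zp2, the sperm-binding component, between 0 and 49.2 CPM with a median of 1.61, and Zp1, the cross-linker, between 0 and 7.43 CPM with a median of 1.40. In each of the 3, the highest libraries stood many times above the median, less so for Zp1. Astl, the protease that cleaves ZP2 after fertilization, had at least 5 counts in 4 of 83 libraries. Oosp1, a secreted oocyte protein, had them in 8. Gdf9 was counted in 80 libraries and lay between 0 and 18.7 CPM with a median of 2.93. Bmp15, its partner, was also counted in 80 and lay between 0 and 7.87 CPM with a median of 2.52.

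Genes of the subcortical maternal complex and its partners differed in level. Padi6, whose protein is needed for the cytoplasmic lattices of the oocyte, lay between 0 and 174 CPM with a median of 6.13. Tle6, a core subunit, had a median of 5.19 CPM (0 to 20.5), Khdc3, another, 3.00 (0 to 32.3), Ooep 0.723 (0 to 10.1) and Nlrp5 0.155 (0 to 5.36). Only Padi6 and Tle6 of these were counted in 82 of 83 libraries, whereas Nlrp5 was at 0 in 41. Of the other NLR family genes of the oocyte, Nlrp14 and Nlrp4f had higher levels than Nlrp5. Nlrp14 was counted in 71 libraries, Nlrp4f in 79 and Nlrp9b in 42, with medians of 1.12, 1.44 and 0.173 CPM.

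Genes that store, activate or remove maternal RNA were also measured. Zar1, which binds stored mRNA, had a median of 3.49 CPM (0 to 27.4), Cpeb1, which controls cytoplasmic polyadenylation, 1.55 (0 to 5.84), and Btg4, the adaptor that brings the deadenylase to maternal RNA, 1.99 (0 to 7.59). Of the counts of Zar1 above 0, 17.7% lay more than 0.001 from a whole number, of Obox5 11.1% and of Dppa3 7.02%, so reads shared with similar copies may be split there and their levels are uncertain. The whole span of Btg4, introns included, overlaps that of Layn, and the span of Cpeb1 that of a ribosomal pseudogene, Rpl7a-ps9. Both lie on the opposite strand, which the library kit does not mark. Whether exons overlap was not tested, so it is not known whether any reads are shared. Mos, the kinase that holds the egg at the second meiotic metaphase, had at least 5 counts in 9 libraries, and Wee2, the kinase that keeps CDK1 inactive during arrest, in 6. Rfpl4, an oocyte RING finger protein, had them in 17. Bcl2l10, an oocyte member of the BCL2 family, was the only gene of the 34 with a count in each of the 83 libraries, between 0.209 and 10.9 CPM. H1f8 lay between 0 and 26 CPM with a median of 5.05. Tcl1, a coactivator of AKT, had a median of 1.86 CPM, Dppa3, which protects maternal DNA methylation, 0.691, and Npm2, the oocyte nucleoplasmin, 0.277. The span of Npm2 overlaps that of Xpo7 on its own strand, and overlap of exons was not tested there either. Among transcription factors Nobox had a median of 0.308 CPM, Lhx8 of 0.619 and Obox5 of 0.506, with at least 5 counts in 12, 15 and 10 libraries.

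**Figure D3:**
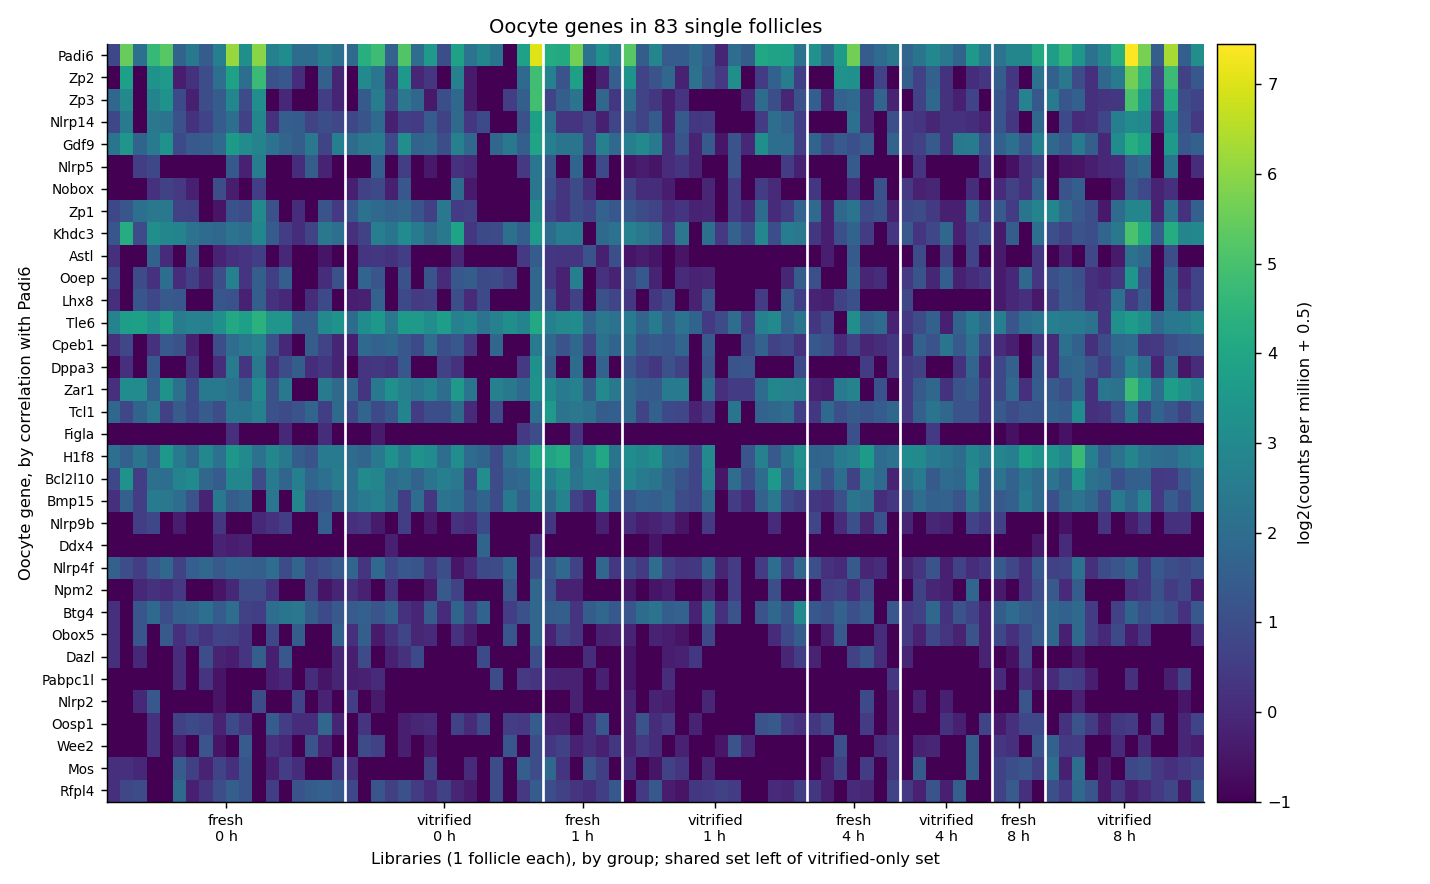
Levels of the 34 oocyte genes, as log2(CPM + 0.5), in each of the 83 libraries. Genes are ordered by their correlation with Padi6; columns in which Padi6, Zp2 and Zp3 are bright together stand beside columns in which H1f8 and Bcl2l10 keep a similar level.

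Statistical comparisons used the quasi-likelihood test of edgeR on 11889 genes, with p-values adjusted by the method of Benjamini and Hochberg, and a gene was called at an adjusted p under 0.05. Its expression filter kept 18 of the 34 oocyte genes. The other 16 (Mos, Rfpl4, Obox5, Nobox, Nlrp4f, Lhx8, Npm2, Oosp1, Wee2, Nlrp9b, Figla, Nlrp2, Dazl, Ddx4, Pabpc1l and Astl) were too low to test there. Fold changes are on a scale that holds most genes level (TMM), whereas CPM refers to the total count, and the 2 scales part between times. From 0 to 1 h in fresh follicles the median log2 change of all genes was -0.11 with TMM and -0.60 with total counts, and from 1 to 8 h it was 0.05 and 0.67.

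Vitrified and fresh follicles were compared to ask whether the oocyte's RNA was affected by vitrification. No oocyte gene of the 18 tested was called at 0, 1, 4 or 8 h, the last 3 within the shared set, where fresh and vitrified follicles lay in different rows. Over all genes tested the test called 0.967%, 0.555%, 0.118% and 2.06% at these times, so few or no calls would be found at that rate. At an unadjusted p under 0.05 the 18 genes gave 0, 0, 0 and 2, against 11%, 10.3%, 6.48% and 11.4% of all genes. DESeq2 and limma on log2(TPM + 1) also called none of the 18 at any of the 4 times. Limma could hardly show a change in the lowest genes, since their log2(TPM + 1) values lie near 0. Median TPM was 0.0122 for Nlrp5, 0.0499 for Cpeb1 and 0.117 for Nlrp14, whereas it was 4.14 for Khdc3. The same limit holds for the limma results below. The median log2 change of the 18 was 0.07 at 0 h, -0.21 at 1 h, 0.05 at 4 h and 0.53 at 8 h, beside -0.02, 0.05, 0.01 and 0.10 for all genes; with total counts as the scale it turned to -0.01 at 0 h and -0.04 at 4 h.

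The width of the intervals sets what these comparisons could show. At 0 h, with 15 and 18 libraries, the vitrified minus fresh log2 change of Gdf9 was -0.06 ± 0.38 (SE), of Padi6 0.22 ± 0.56, of Zp3 0.39 ± 0.58 and of Tle6 -0.09 ± 0.25. At 8 h, with 3 and 4 libraries, that of Padi6 was 0.91 ± 1.19 and of Gdf9 0.07 ± 0.78. The 95% interval of Padi6 at 8 h ran from -1.42 to 3.24, so that a change of several-fold in its RNA was not detectable there. The 2 genes under an unadjusted p of 0.05 at 8 h were Cpeb1 and Tcl1. Cpeb1 read 0.517, 0.31, 0 and 0.756 CPM in the 4 fresh follicles and 0.522, 3.81 and 2.62 CPM in the 3 vitrified ones. Each of the fresh values stands for 3 counts or fewer. The groups overlapped in 1 vitrified library, and the log2 difference was 2.50 ± 0.83 (adjusted p = 0.104). Tcl1 read 2.07, 1.4, 1.86 and 1.76 CPM fresh and 2.61, 2.25 and 8.2 CPM vitrified. Its groups did not overlap, but 1 vitrified library stood far above the others (log2 difference 1.54 ± 0.67, adjusted p = 0.31).

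**Figure D4:**
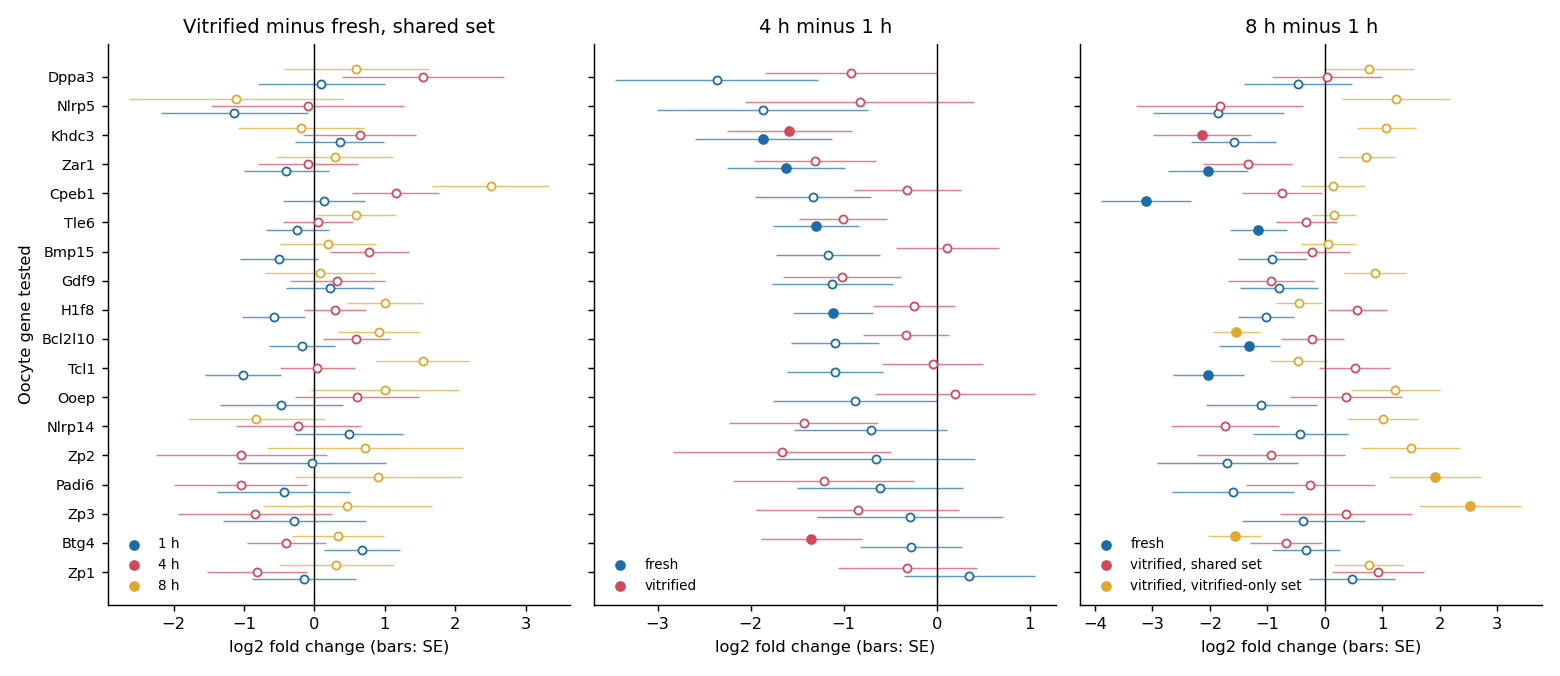
Log2 fold changes of the 18 oocyte genes tested, with their standard errors: vitrified minus fresh within the shared set (left), 4 h minus 1 h (middle) and 8 h minus 1 h (right). Filled points passed an adjusted p of 0.05 and open points did not; none is filled on the left, and on the TMM scale most fresh values of 4 h and 8 h lie left of 0.

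From 1 to 4 h, 4 of 18 oocyte genes fell in fresh follicles and none rose, beside 46.4% of all genes called (21.9% higher, 24.5% lower). The share that fell was no larger than that of all genes. The median log2 change of the 18 was -1.10, against -0.03 for all genes, and 1 of 18 values was above 0. Markers of other cells were as low or lower in the same step: the median was -3.23 over 10 granulosa markers tested, -2.98 over 5 of cumulus cells, -1.26 over 10 of theca and stroma and -1.25 over 4 of endothelium. Their part in the oocyte genes' values was not tested. Tle6 lay at 2.91, 5.36 and 8.07 CPM (lowest, median, highest) in fresh follicles at 1 h and at 0, 1.28 and 8.52 CPM at 4 h. Of the 7 libraries of 4 h, 5 lay under the 1 h range and replicate 4 lay above it (log2 change -1.30 ± 0.47, adjusted p = 0.0166). Khdc3 went from 0.0002, 3.71 and 5.29 CPM to 0, 0.794 and 2.75 CPM (-1.86 ± 0.74, adjusted p = 0.0312), where the value of 0.0002 is a fraction of 1 count. Its ranges overlapped through that 1 h library. Zar1 went from 2.33, 5.50 and 7.56 CPM to 0, 0.397 and 6.39 CPM (-1.62 ± 0.64, adjusted p = 0.0299). H1f8 went from 3.86, 11.2 and 18 CPM to 2.78, 3.93 and 11.6 CPM (-1.11 ± 0.43, adjusted p = 0.028). Both overlapped between times. Bcl2l10 just missed the threshold (-1.10 ± 0.48, adjusted p = 0.0505). Tle6 was the only one of the 4 to pass whichever 4 h library was left out. Leaving out replicate 2 or 6 of fresh 4 h raised the adjusted p of Khdc3 to 0.0669 or 0.0609, replicate 1, 2, 5 or 7 that of Zar1 to 0.0658, 0.0737, 0.0717 or 0.0689, and replicate 1, 2 or 6 that of H1f8 to 0.058, 0.0621 or 0.0522. The count then ranged from 1 to 6.

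In vitrified follicles of the shared set 2 of 18 were called lower from 1 to 4 h and none higher, beside 46.5% of all genes called (20.6% higher, 25.9% lower), a smaller share than among all genes. Khdc3 read 5.95, 4.6, 3.52, 0.821 and 4.65 CPM at 1 h and 0.345, 1.28 and 3.02 CPM (lowest, median, highest of 7) at 4 h. All but 1 of the 1 h libraries lay above the 4 h range (-1.59 ± 0.67, adjusted p = 0.0452). Btg4 read 1.92, 3.45, 4.11, 2.46 and 2.68 CPM at 1 h and 0.388, 1.07 and 3.00 CPM at 4 h, with overlap (-1.35 ± 0.54, adjusted p = 0.0348). The call of Khdc3 was lost without vitrified 1 h replicate 1, 2, 3 or 5 (adjusted p = 0.117, 0.0722, 0.0544 and 0.066), and that of Btg4 without replicate 2 or 3 (0.0617 and 0.0892). Neither Khdc3 nor Btg4 passed with total counts as the scale (adjusted p = 0.0852 and 0.0582). The median log2 change was -0.89, with 2 of 18 values above 0, against -0.11 for all genes, -2.84 for the granulosa markers and -3.18 for those of cumulus cells. When the vitrified step was tested against the fresh one, none of the 18 was called, beside 0.0421% of all genes. None had an unadjusted p under 0.05, and neither DESeq2 nor limma called any.

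From 4 to 8 h no oocyte gene was called in fresh follicles (36.5% of all genes) or in vitrified follicles of the shared set (37.1%). At an unadjusted p under 0.05 there were 1, Cpeb1 in fresh follicles, and 0. For the vitrified step limma called 3 higher, and DESeq2 none for either. The median log2 changes were -0.02 in fresh and 0.37 in vitrified follicles, and 0.56 and 0.90 with total counts as the scale. The vitrified minus fresh difference of this step was called for none either, beside 0.993% of all genes and again none at an unadjusted p under 0.05 or by DESeq2 or limma.

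Over the whole span from 1 to 8 h, 5 of 18 were called lower in fresh follicles and none higher, beside 49.7% of all genes called (26.2% higher, 23.5% lower). Of these 5, Cpeb1 fell most, from 1.16, 2.92 and 3.94 CPM (lowest, median, highest) at 1 h to 0.517, 0.31, 0 and 0.756 CPM in the 4 follicles of 8 h. The 2 times did not overlap (-3.11 ± 0.78, adjusted p = 0.000549). Each of the 8 h values stands for 3 counts or fewer, so the size of this fall is uncertain. Tcl1 went from 2.30, 4.15 and 11.1 CPM to 2.07, 1.40, 1.86 and 1.76 CPM, also without overlap (-2.02 ± 0.61, adjusted p = 0.00396). Zar1 went from 2.33, 5.50 and 7.56 CPM to 1.29, 3.24, 0.619 and 2.27 CPM, with 1 8 h library inside the 1 h range (-2.03 ± 0.70, adjusted p = 0.0124). Bcl2l10 (-1.31 ± 0.53, adjusted p = 0.0323) and Tle6 (-1.16 ± 0.50, adjusted p = 0.0446) were called with overlapping ranges. Without fresh 8 h replicate 1, 2 or 4 the adjusted p of Bcl2l10 was 0.0509, 0.0845 or 0.0653, and without replicate 2, 3 or 4 that of Tle6 was 0.163, 0.0725 or 0.0567. Without replicate 2 the count fell to 3. With total counts as the scale Cpeb1 and Tcl1 were called (2 of 18), and the median log2 change of the 18 was -0.53 in place of -1.13. On the TMM scale the granulosa markers had a median of -3.68 in this span, those of theca and stroma -2.72 and those of endothelium -1.93.

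In vitrified follicles of the shared set the same span gave 1 call, Khdc3 lower, beside 50.1% of all genes called (26.2% higher, 23.9% lower). Khdc3 read 1.57, 1.04 and 1.74 CPM at 8 h, all under 4 of the 5 libraries of 1 h (-2.14 ± 0.85, adjusted p = 0.0295). This call was lost without vitrified 1 h replicate 1 or any 1 of the 3 libraries of 8 h (adjusted p = 0.0627, 0.0698, 0.143 and 0.0611). With total counts as the scale Khdc3 was not called (adjusted p = 0.152), 1 other oocyte gene was called higher, and the median of the 18 turned from -0.29 to 0.44. On the vitrified-only set 2 genes were called higher and 2 lower, beside 59.4% of all genes called (32% higher, 27.4% lower). Padi6 went from 0.418, 3.59 and 15.7 CPM (lowest, median, highest) to 2.37, 8.58 and 174 CPM (1.92 ± 0.80, adjusted p = 0.0338), and Zp3 from 0, 0.442 and 3.49 CPM to 0.617, 1.11 and 32 CPM (2.53 ± 0.89, adjusted p = 0.0117). Both ranges overlapped. Without vitrified 8 h replicate 7 the adjusted p was 0.258 for Padi6 and 0.0902 for Zp3, and without replicate 10 it was 0.0675 for Padi6. Btg4 (-1.57 ± 0.46, adjusted p = 0.00227) and Bcl2l10 (-1.54 ± 0.41, adjusted p = 0.000756) were lower there, again with overlapping ranges. With total counts as the scale neither was called and the split became 10 higher and 0 lower, since that scale raised the median of all genes from 0.11 to 0.89.

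The step from 0 to 1 h falls together with a change of set. In fresh follicles 3 of 18 were called higher and none lower, beside 42.1% of all genes called (19% higher, 23.1% lower). H1f8 lay at 1.73, 4.52 and 10.9 CPM (lowest, median, highest) at 0 h and at 3.86, 11.2 and 18 CPM at 1 h (1.54 ± 0.34, adjusted p = 0.000113). Tcl1 lay at 0.977, 2.22 and 5.84 CPM and then at 2.30, 4.15 and 11.1 CPM (1.33 ± 0.41, adjusted p = 0.00523), and Cpeb1 at 0, 1.22 and 5.84 CPM and then at 1.16, 2.92 and 3.94 CPM (1.22 ± 0.48, adjusted p = 0.0323). All 3 overlapped between times, and with total counts as the scale H1f8 alone was called while the median of the 18 turned from 0.44 to -0.02. In vitrified follicles Btg4 alone was called, higher (1.33 ± 0.44, adjusted p = 0.0104), beside 43.5% of all genes called (21.5% higher, 22% lower). It did not pass with total counts (adjusted p = 0.157), where 1 other oocyte gene was called lower instead. The median of the 18 was 0.26 there and -0.40 with total counts.

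The vitrified follicles of 8 h were also compared between the shared and the vitrified-only set. Khdc3 and Zar1 were called higher and H1f8 and Bcl2l10 lower on the vitrified-only set, 4 of 18, beside 23.4% of all genes called (10.3% higher, 13.1% lower), a share near that of all genes. Khdc3 lay at 1.54, 6.69 and 32.3 CPM there (lowest, median, highest of 9) and at 1.57, 1.04 and 1.74 CPM on the shared set (2.77 ± 0.81, adjusted p = 0.00784), and only the lowest of the 9 fell within the shared-set range. H1f8 lay at 2.40, 4.16 and 6.76 CPM and at 9.92, 7.26 and 26 CPM, without overlap (-1.77 ± 0.45, adjusted p = 0.00208). Zar1 differed by 1.89 ± 0.73 (adjusted p = 0.0493) and Bcl2l10 by -1.35 ± 0.49 (adjusted p = 0.0362). Without shared-set replicate 3 of vitrified 8 h, the library with the highest H1f8 value, the adjusted p was 0.363 for H1f8 and 0.736 for Bcl2l10. Khdc3 passed in all but 1 such omission (replicate 2, adjusted p = 0.0615). Zar1 was lost without any 1 of replicates 1, 2, 3, 7, 8, 10 and 11 (adjusted p = 0.118, 0.205, 0.0972, 0.132, 0.0574, 0.0675 and 0.0604), and Bcl2l10 also without replicate 6, 9 or 10 (0.0563, 0.0556 and 0.0616). At 1 h none of the 18 was called between sets, beside 1.37% of all genes, 1 had an unadjusted p under 0.05, and DESeq2 and limma called none.

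Oocyte genes varied more between follicles of 1 group than most genes. The biological coefficient of variation, edgeR's estimate of relative spread beyond counting noise, had a median of 0.691 over the 18 and of 0.344 over all 11889 genes tested. For 16 of the 18 it lay above the trend that edgeR fits to genes of like abundance. Over all genes tested the share above the trend lay between 29.7% and 37.3%. These are the shares with a higher ratio to the trend than Tcl1 (1.028) and Cpeb1 (0.965). The trend is not the middle gene, since the median ratio to it was 0.877 over all genes tested. Zp2 had the widest spread at 1.36, then Nlrp5 at 1.27, Zp3 at 1.15, Padi6 at 1.06 and Dppa3 at 1.04. The ratio to the trend was 3.30 for Zp2, 3.22 for Padi6 and 2.40 for Zp3, and 0.32%, 0.362% and 1.71% of all genes had a higher ratio. Tle6 at 0.431, Btg4 at 0.446, H1f8 at 0.476 and Bcl2l10 at 0.482 varied least. Btg4 and Cpeb1 lay under the trend, at ratios of 0.86 and 0.965, and 53% and 37.3% of all genes had a higher ratio.

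**Figure D5:**
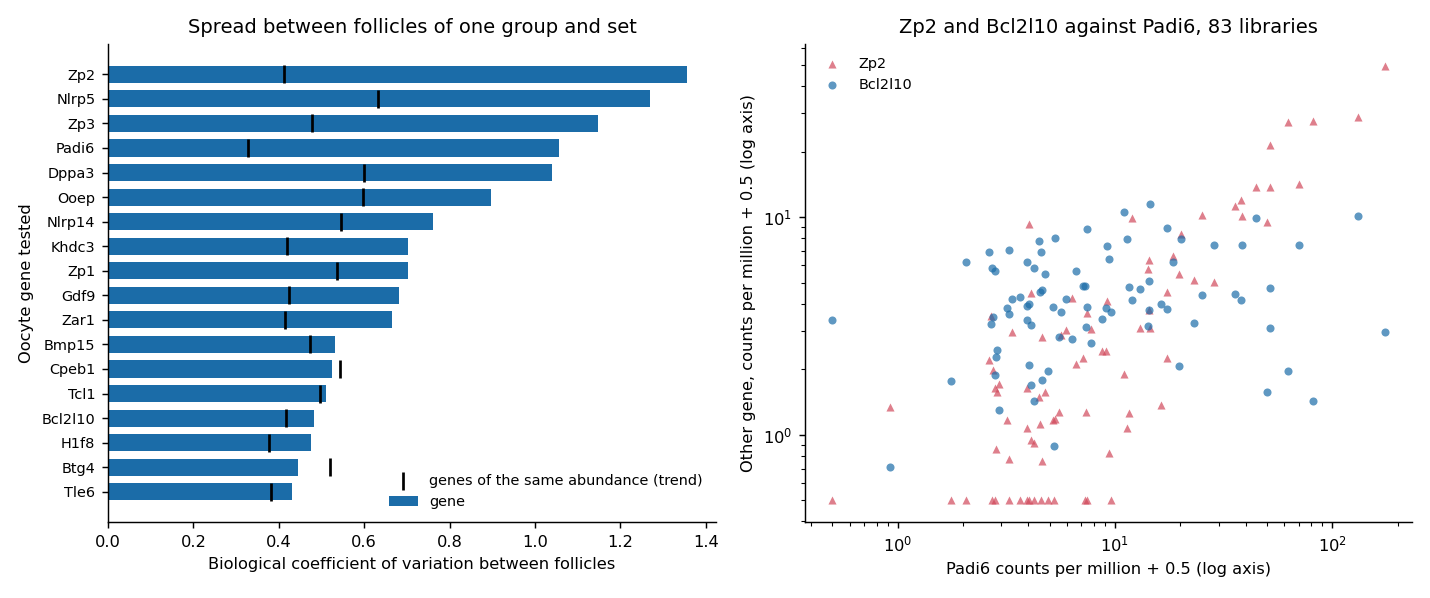
Left, biological coefficient of variation of the 18 oocyte genes tested, with a tick at the trend that edgeR fits to genes of like abundance. Right, Zp2 and Bcl2l10 against Padi6, as CPM + 0.5 on log axes, 1 point of each per library; Zp2 is high where Padi6 is high, and Bcl2l10 less so (correlations of 0.82 and 0.25 with group and set means removed).

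Several widely spread genes were high in the same follicles. As a description over 83 libraries, with the mean of each group and set removed from log2(CPM + 0.5), Padi6 had a correlation of 0.82 with Zp2, 0.72 with Zp3, 0.70 with Nlrp14, 0.62 with Gdf9 and 0.60 with Nlrp5. These values share a library and its depth. Over all 561 pairs of the 34 genes the median correlation was 0.155, and 32 pairs were above 0.5. These correlations were not set against those of pairs of all genes, so they do not show a trait particular to the oocyte genes. Padi6 had a correlation of 0.26 with H1f8, 0.25 with Bcl2l10, 0.21 with Bmp15 and 0.13 with Btg4, and of -0.12 with Rfpl4. Gdf9 and Bmp15, made by the same cell, had one of 0.34. Most of the 16 untested genes have few counts, and the part of low counts in their weaker correlations was not tested.

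A few follicles carried the highest values of these co-varying genes. Vitrified 8 h replicate 7, of the vitrified-only set, held 174 CPM of Padi6 (567 counts), 49.2 CPM of Zp2, 32 of Zp3, 32.3 of Khdc3 and 27.4 of Zar1. Vitrified 0 h replicate 15 held 131 CPM of Padi6 and 29 of Zp3, vitrified 8 h replicate 10 held 81.1 and 17.7, and fresh 0 h replicate 10 held 69.6 and 6.92. Such libraries occurred among fresh and vitrified follicles. The first of them stood highest of all 83 libraries for Padi6, Zp2, Zp3, Khdc3 and Zar1, but not for H1f8 or Bcl2l10.

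Promoters are shown for 2 of the co-varying genes, Padi6 and Zp3, and 2 others, H1f8 and Btg4, because they let the letters be compared. Each window runs from 250 bases before to 50 after the gene's start and is from RefSeq on GRCm38.p6, where 26 of the 34 genes had an entry. Capitals mark CANNTG, the E-box bound by proteins such as FIGLA, and TAATTG or TAATTA, bound by NOBOX, on either strand. The Padi6 window lies at chr4:140742594-140742893 on the minus strand, that of Zp3 at chr5:135979855-135980154, of H1f8 at chr6:115944681-115944980 and of Btg4 at chr9:51115751-51116050, all 3 on the plus strand.
Padi6: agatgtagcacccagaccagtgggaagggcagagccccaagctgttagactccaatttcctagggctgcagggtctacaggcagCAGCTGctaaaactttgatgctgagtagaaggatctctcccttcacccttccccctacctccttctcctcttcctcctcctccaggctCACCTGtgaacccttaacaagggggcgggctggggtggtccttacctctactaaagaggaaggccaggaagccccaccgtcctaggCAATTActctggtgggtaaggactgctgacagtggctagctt
Zp3: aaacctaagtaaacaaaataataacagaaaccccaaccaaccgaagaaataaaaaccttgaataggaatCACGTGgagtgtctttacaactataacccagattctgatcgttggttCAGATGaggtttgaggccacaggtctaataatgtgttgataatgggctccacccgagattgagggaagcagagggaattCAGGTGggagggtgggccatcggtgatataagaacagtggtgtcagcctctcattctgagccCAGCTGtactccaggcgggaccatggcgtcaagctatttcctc
H1f8: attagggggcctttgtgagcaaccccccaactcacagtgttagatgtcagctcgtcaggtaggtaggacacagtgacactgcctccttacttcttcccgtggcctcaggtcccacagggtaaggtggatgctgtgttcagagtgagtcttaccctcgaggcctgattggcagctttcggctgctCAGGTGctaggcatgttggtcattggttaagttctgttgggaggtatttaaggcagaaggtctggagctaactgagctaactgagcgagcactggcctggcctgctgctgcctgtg
Btg4: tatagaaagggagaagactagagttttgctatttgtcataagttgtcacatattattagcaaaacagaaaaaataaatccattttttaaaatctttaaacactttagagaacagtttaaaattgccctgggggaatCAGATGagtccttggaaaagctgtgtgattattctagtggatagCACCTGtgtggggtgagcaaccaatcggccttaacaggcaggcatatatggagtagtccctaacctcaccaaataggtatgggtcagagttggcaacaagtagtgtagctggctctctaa

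CAGGTG or its reverse, CACCTG, stood 78 bases before the start of Padi6, 55 before that of Zp3, 66 before that of H1f8 and 70 before that of Btg4. These 6 letters are 1 form of CANNTG and were picked out after the windows had been read. They occurred in 15 of 29 windows of oocyte genes (51.7%), some genes having more than 1 window, and in 20.2% of 32851 windows of all genes. CANNTG occurred in 26 of 29 windows (89.7%) and in 72.3% of all, TAATTG or TAATTA in 6 of 29 (20.7%) and in 12.4%. Both the co-varying and the steadier genes shown held this form at about the same distance, but Padi6, Zp3 and Btg4 also held other E-boxes elsewhere. The genes shown were a choice, since 15 of 26 oocyte genes with a window held CAGGTG or CACCTG. Tle6, which varied least, held neither, and its E-boxes lay 1 to 249 bases before a start. Nlrp5, which co-varied with Padi6, held neither, with E-boxes 107 to 186 bases before a start. Whether distance goes with co-variation was not tested.

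Genes of the oocyte were also read from 4 other lists, 1 of which holds the member Dppa3 too. The table held 37 genes listed as oocyte-restricted beyond the members, and 10 of them were tested. None was called between vitrified and fresh follicles at any time, beside 0.118% to 2.06% of all genes. From 1 to 4 h in fresh follicles Obox1 and Oog3 fell and Uchl1 rose. In that step 46.4% of all genes were called (21.9% higher, 24.5% lower). Obox1 had 2.79 ± 2.37 CPM (SD, n = 6) at 1 h and 0.540 ± 0.481 (n = 7) at 4 h (log2 change -2.32 ± 0.81, adjusted p = 0.0143). Oog3 had 2.66 ± 1.63 and 0.757 ± 1.17 CPM (-1.79 ± 0.74, adjusted p = 0.0389). Uchl1, a deubiquitinase also made by other cells, had 12.4 ± 9.80 and 33 ± 7.74 CPM (1.42 ± 0.38, adjusted p = 0.00146). Zbed3, a partner of the subcortical maternal complex, alone had a median of 464 CPM, above the 57.4 CPM of all 34 members. Zbed3, Uchl1 and Kit each had a count in all 83 libraries, and which cells of the follicle carried them was not tested. The correlation of Zbed3 with the members' mean within groups was 0.588, that of Uchl1 was 0.65 and that of Kit, the receptor for the granulosa cells' KIT ligand, was 0.24. With Padi6 the values were 0.401, 0.621 and 0.428. They were not set against those of all genes.

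Of 16 genes of meiotic arrest and resumption 13 were tested. In fresh follicles from 1 to 4 h Gpr3, Ccnb2 and Cdc25b fell and Marf1 rose, 4 of 13 beside 46.4% of all genes. Gpr3, the receptor that holds cyclic AMP high in the oocyte, had 0.336 ± 0.453 CPM at 0 h (SD, n = 18), 11.5 ± 6.30 at 1 h (n = 6) and 0.988 ± 0.580 at 4 h (n = 7). Its log2 changes were 5.16 ± 0.36 and then -3.56 ± 0.47 (adjusted p = 9.01e-23 and 4.7e-10). The first of these steps falls together with the change of set. Which cells of the follicle carried the Gpr3 RNA was not tested. Ccnb2, a cyclin of CDK1, had 9.13 ± 4.43 CPM at 1 h and 0.644 ± 0.771 at 4 h (-3.69 ± 0.57, adjusted p = 5.31e-08). Cyclins and other cell cycle genes are also made by dividing granulosa cells. Between vitrified and fresh follicles 1 of 13 was called, beside 0.555% of all genes at that time: Prkaca at 1 h, with 5.69 ± 10.6 CPM in vitrified (n = 5) and 0.651 ± 0.980 in fresh follicles (n = 6), an SD above the mean (3.27 ± 0.75, adjusted p = 0.0144).

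Of 17 genes that store, translate or remove maternal RNA, apart from the members, 13 were tested. From 1 to 4 h in fresh follicles 4 rose and 3 fell, beside 46.4% of all genes called, and from 0 to 1 h 3 rose and 5 fell, beside 42.1%. Zfp36l2, which directs decay of AU-rich mRNA, had 28 ± 12.0 CPM at 0 h, 104 ± 20.9 at 1 h and 48.4 ± 11.2 at 4 h in fresh follicles. It was also the 1 gene of this list called between vitrified and fresh follicles at 0 h, beside 0.967% of all genes, with 14.8 ± 3.19 CPM vitrified (n = 15) and 28 ± 12.0 fresh (n = 18; log2 change -0.79 ± 0.15, adjusted p = 0.000746). Of 15 maternal effect and chromatin genes, the member Dppa3 among them, 13 were tested. None was called between vitrified and fresh follicles at any time, beside 0.118% to 2.06% of all genes. Hsf1, the heat shock factor, rose from 28.1 ± 2.72 CPM at 1 h to 94.7 ± 7.75 at 4 h in fresh follicles (1.76 ± 0.18, adjusted p = 2.78e-14). Spin1 rose in the same step from 30.9 ± 8.01 to 72.7 ± 10.3 CPM (1.26 ± 0.22, adjusted p = 9.18e-07). Genes of these 2 lists are expressed in many cell types, and which cells carried them was not tested.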

How the data were processed

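The authors deposited 2 tables of the same 83 libraries: estimated counts per gene, not all whole numbers per the values, and log2(TPM + 1) values. Per the labels' protocols, cDNA was made by Smart-Seq2, without molecular identifiers, and libraries by Nextera XT. Per the submitters' processing notes, Partek, Bowtie2, HISAT2, DESeq2 and the mm10 build were used, in roles not given in the sources used here. The members and lists were chosen with earlier results of these data known. Estimated counts were rounded and tested in R 4.3.3 with edgeR 4.0.16 (quasi-likelihood test, TMM, robust fit, minimum count 10), with a mean for each of 10 combinations of group and set, and Benjamini-Hochberg adjustment. Vitrified and fresh follicles of 1, 4 and 8 h were compared within the shared set. Standard errors were derived from the F statistic. All members are named, with full statistics where called; from other lists at most the 3 called genes of smallest p in a comparison are named, and others only beside counts of 5 or fewer. DESeq2 1.42.0 and limma 3.58.1 served as alternatives. Gene positions and exons are from GENCODE vM21. The test was checked on simulated data.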

Additional observations from a re-analysis of the deposited data

Results flagged for a closer look

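In groups of 4 to 10 libraries, the highest or lowest value was looked at again where its gap to the nearest other value was a large part of the group's range by Dixon's test at 95%. This was done for the summed level, for the number of genes with at least 5 counts and for each of the 18 genes tested, 80 sets of values in all, of which 15 stood out. For normally distributed and independent values, chance alone gives about 1 in 20. CPM values of low-count genes need not be normally distributed, and the sets share libraries. The 15 can therefore not be read as an excess over that rate.

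In fresh 4 h replicate 4 the summed level was 121.54 CPM, beside 58.7 in the next library. The same library stood out for Padi6 (49.541 CPM, next 11.5), Nlrp14 (3.729, next 1.57), Tle6 (8.523, next 3.42) and Nlrp5 (2.131, with all others at 0). In other fresh 4 h libraries, replicate 5 held 11.575 CPM of H1f8 (next 5.86), and replicate 6 had Btg4 at 0.0 CPM (next 1.6). Among fresh 1 h libraries, replicate 3 held 51.218 CPM of Padi6 (next 18) and 5.613 of Ooep (next 0.766). Replicate 1 of that group held 3.83 CPM of Nlrp14 (next 1.19) and 11.106 of Tcl1 (next 4.56), and replicate 4 had 5.0 genes with at least 5 counts (next 14). Among vitrified 4 h libraries, replicate 6 held 2.856 CPM of Dppa3 (next 1.07) and 2.856 of Zp1 (next 1.42), and replicate 3 held 2.997 of Zp3 (next 1.14).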

How the results depend on the processing

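Counts of oocyte genes called were recomputed with other scaling, filters, tests, terms for the set and samples. The share of all genes called in each of these runs is not given beside them. The counts therefore cannot show a change particular to the oocyte genes. Between vitrified and fresh follicles the count stayed at 0 at 0, 1 and 4 h in each alternative run, and at 8 h it was 1 with the sets pooled. With total counts as the scale, fresh 0 to 1 h gave 1 (3 in the main test), fresh 1 to 8 h 2 (5), vitrified 1 to 4 h 0 (2), vitrified 4 to 8 h 1 (0), vitrified 1 to 8 h on the vitrified-only set 10 (4), and the sets at 8 h 2 (4). Without the filter, fresh 1 to 4 h gave 2 (4), fresh 1 to 8 h 3, vitrified 1 to 4 h 1, vitrified 4 to 8 h 1, vitrified 1 to 8 h 0 (1) and the vitrified-only set 7. Among the 16 genes under the filter that fit called Astl and Pabpc1l higher and Dazl lower from 1 to 8 h on the vitrified-only set, and Pabpc1l higher from 4 to 8 h in vitrified follicles. Limma on log2(TPM + 1) gave 1 for fresh 1 to 8 h, 1, 3 and 2 for vitrified 1 to 4, 4 to 8 and 1 to 8 h, and 14 on the vitrified-only set, where all 3, 2 and 14 of the last comparisons were higher. Total counts as the scale gave 1 lower in place of 1 higher for vitrified 0 to 1 h, and 1 higher in place of 1 lower for vitrified 1 to 8 h. DESeq2's size factors gave 1 for vitrified 1 to 4 h. An additive set term gave 2, 1 and 3 for vitrified 0 to 1, 1 to 4 and 1 to 8 h, and pooled sets 1, 5 and 3 for vitrified 1 to 4, 4 to 8 and 1 to 8 h. Khdc3 from 1 to 8 h in vitrified follicles then reversed, to 0.246 and 0.515 on the log2 scale. Fits to the compared groups alone, which kept fewer oocyte genes, gave 0, 0, 1, 2 and 0 for vitrified 0 to 1, 1 to 4, 4 to 8 and 1 to 8 h and the vitrified-only set. Other causes of these shifts were not tested.

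Single libraries of fresh 4 h, fresh 8 h, vitrified 8 h and, on the shared set, vitrified 1 h were left out in turn. This gave 1 to 6 for fresh 1 to 4 h, 3 to 4 for fresh 1 to 8 h and 0 to 2 for vitrified 1 to 4 h. It gave 0 to 1 for vitrified 1 to 8 h, 2 to 5 on the vitrified-only set and 1 to 5 between sets at 8 h. No single library of fresh 1 h, vitrified 4 h or, on the vitrified-only set, vitrified 1 h was left out. For steps with these groups the ranges therefore cover 1 side only. Omissions of single fresh 4 h libraries and of vitrified 8 h libraries of the vitrified-only set, and of the 2 shallowest libraries, were chosen after seeing the data; the last changed no count by over 1.5 times. For the fresh 8 h summed level, such omissions gave a median of 50.7 to 64.4 CPM, and the share of TPM gave 39.5. Detection medians depended on the threshold. At least 1 count gave 25, 27.5, 21 and 28.5 genes in fresh and 24, 23.5, 24 and 26.5 in vitrified follicles at 0, 1, 4 and 8 h. At least 10 counts gave 6.5, 9.0, 2.0 and 8.0 in fresh and 4.5, 3.0 and 9.5 in vitrified follicles at 1, 4 and 8 h, and thinning gave 2.5, 4.5, 1.0 and 3.0 in fresh and 2.0, 1.0, 1.0 and 3.5 in vitrified. No paired analysis was possible because replicate numbers were given here in order within a group and the labels pair no samples. No member had a median above 17 counts per library, which limits the precision for single genes.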
